A study of Mus musculus with 27 samples.

Results

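Activin and inhibin are secreted dimers of the transforming growth factor beta family, and 9 genes of this system were followed here: the subunit genes Inha, Inhba and Inhbb, the antagonist genes Fst and Fstl3, the receptor genes Acvr1b, Acvr2a and Acvr2b, and the coreceptor gene Tgfbr3. They were chosen by symbol and matched to 9 of the 48795 genes quantified in a bulk RNA-seq series of mouse cells. All 9 were among the 20839 genes with enough reads to be tested. The cells were XY mouse embryonic stem cells taken stepwise toward Sertoli-like cells, after the supporting cells of the testis. They were of clone 7, with the genotype Tesco-CFP; R26-rtTA in the strain F1:C57BL/6 x CBA. Every group came from this 1 clone, which carried a CFP reporter under the TESCO enhancer of Sox9 and a doxycycline-responsive transactivator at the Rosa26 locus.

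There were 3 libraries in each of 9 groups, 27 in all. ESC were kept in 2i/LIF, a medium with LIF and inhibitors of MEK and GSK3. For differentiation they first had a passage in a medium of knockout serum replacement and LIF, listed without these inhibitors. EpiSC, the epiblast-like cells, had 60 h of Activin A at 20 ng/ml and bFGF at 12 ng/ml. M, the early mesoderm, had 36 h of bFGF at 20 ng/ml, BMP4 at 10 ng/ml and the PI3 kinase inhibitor LY294002 at 10 μM, with no Activin A. IM1 to IM5 were intermediate mesoderm cultures of 3.5 days on from M, and all of them received bFGF at 5 ng/ml and BMP4 at 20 ng/ml. IM1 had nothing more. IM3 also had retinoic acid at 100 nM, IM4 had retinoic acid and 0.3 μM of CHIR99021, an inhibitor of GSK3, IM2 had retinoic acid and Activin A at 10 ng/ml, and IM5 had all 3 additions. iSLC were IM3 cells infected with doxycycline-inducible lentiviruses for Nr5a1 and Dmrt1. They were moved to a Sertoli medium and sorted for CFP after 4 days of doxycycline. That medium itself holds Activin A at 50 ng/ml, with EGF, FSH (follicle-stimulating hormone), FGF9, a prostaglandin and testosterone. The study describes the libraries of a group as biological replicates. All are of the 1 clone, so p-values measure the spread between replicates of that clone. In iSLC the virus, the medium and the sort changed together and cannot be told apart.

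As background, a dimer of beta subunits (βA from Inhba, βB from Inhbb) is an activin, and a beta subunit paired with the alpha subunit from Inha is an inhibin. Activins bind the type II receptors ACVR2A and ACVR2B, which engage the type I receptor ACVR1B and lead to phosphorylation of SMAD2 and SMAD3. Follistatin (Fst) and follistatin-like 3 (Fstl3) bind activins and keep them from the receptors, while betaglycan (Tgfbr3) helps inhibin to occupy the type II receptors. Activin and Nodal signalling through these receptors patterns the epiblast, and inhibin βB with the alpha subunit is a secreted product of Sertoli cells.

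The library totals were 35923040 to 84876603 estimated read counts. Nr5a1 was at 0.09 TPM (transcript abundance per length, scaled to library size) in IM3 and at 93.8 ± 6.55 (SD, n = 3) in iSLC, and Dmrt1 went from 0.45 to 213 ± 18.7 TPM, so both introduced genes followed the labels. The labelled cell types were borne out in part. Fgf5 marked EpiSC at 119 TPM. The early mesoderm gene T was at 502 TPM in M but already at 238 in EpiSC, as was Mixl1 at 40.5. Mesp1 and Tbx6 set M apart more, at 86.6 and 29.0 TPM against 2.13 and 0.97 in EpiSC. Of 4 intermediate mesoderm markers in IM3 Wt1 was at 149 TPM and Osr1 at 1.11, with Lhx1 at 0.44 and Pax2 at 0.04. In iSLC 5 of 8 Sertoli markers were over 1 TPM, against 2 in IM3, and Amh was at 0.56. Of the 5, Sox9 and Cst9 were lower than in IM3, at 24.8 against 40.04 TPM and 1.497 against 4.413. The introduced Dmrt1, Dhh and Fgf9 were higher, with Dhh at 1.86 against 0.7 TPM and Fgf9 at 1.133 against 0.773. Dhh was also at 1.97 TPM in IM1. In a mix of cells, fewer cells of a type and less RNA per cell cannot be told apart. The 12 ESC, M, IM3 and IM4 libraries had 3.89 to 27.1 CPM (read counts scaled to library size) of adult red blood cell genes, against 0.382 to 1.39 in the 15 EpiSC, IM1, IM2, IM5 and iSLC libraries. This partition coincides with most comparisons below, including Activin A against none, and its part in them was not tested.

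The promoters of Inhba, Inhbb and Fstl3 are shown because these genes gave the largest subunit changes and, for Fstl3, the member whose level followed the partition most closely. Each is the RefSeq window of 300 bases (250 before to 50 after the start site, 5′ to 3′ on the gene's strand, build GRCm38.p6), and capitals mark matches, on either strand, to 8 motifs searched. These were the steroidogenic factor site AAGGTCA with a variant, AAGGCCA, the cyclic AMP response element TGACGTCA, the TATA box TATAAA, the CCAAT box, the Sp1 box GGGCGG, the Smad motif CAGACA and a Smad palindrome, GTCTAGAC, and none of them holds another within it. Inhbb is at chr1:119422199-119422498 on the minus strand, Inhba at chr13:16011601-16011900 and Fstl3 at chr10:79777024-79777323, both on the plus strand.
Inhbb: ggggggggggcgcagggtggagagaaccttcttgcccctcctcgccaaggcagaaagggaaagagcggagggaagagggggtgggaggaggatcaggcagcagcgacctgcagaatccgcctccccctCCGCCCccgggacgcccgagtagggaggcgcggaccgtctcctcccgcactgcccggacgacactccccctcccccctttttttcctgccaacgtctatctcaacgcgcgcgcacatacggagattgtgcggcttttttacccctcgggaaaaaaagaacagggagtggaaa
Inhba: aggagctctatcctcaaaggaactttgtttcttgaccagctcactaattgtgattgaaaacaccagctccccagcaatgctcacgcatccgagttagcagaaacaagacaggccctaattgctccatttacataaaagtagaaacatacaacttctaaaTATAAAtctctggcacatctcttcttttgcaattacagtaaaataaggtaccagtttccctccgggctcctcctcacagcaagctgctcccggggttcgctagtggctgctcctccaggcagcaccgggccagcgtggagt
Fstl3: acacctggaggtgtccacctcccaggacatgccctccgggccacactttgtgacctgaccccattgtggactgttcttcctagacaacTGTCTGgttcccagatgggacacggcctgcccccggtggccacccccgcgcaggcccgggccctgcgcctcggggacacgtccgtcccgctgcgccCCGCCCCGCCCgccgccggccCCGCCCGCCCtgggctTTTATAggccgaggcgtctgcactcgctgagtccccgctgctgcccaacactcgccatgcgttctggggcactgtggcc

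The Inhbb window was rich in CpG, with 23 CpG and 64.3% G and C, and held 1 Sp1 box, a motif found in 35.6% of the 32817 mouse windows. The Inhba window held 7 CpG, equal to the median of all windows, at 47.7% G and C, and 1 TATAAA, found in 13.6% of windows. The Fstl3 window held 4 Sp1 boxes in 2 overlapping pairs, 1 TATAAA and 1 CAGACA, the last found in 21.0% of windows. No steroidogenic factor site (AAGGTCA in 4.72% of windows) was matched in these 3 windows, which says only that these letters are not there. The Inha window of the same table starts its transcript 532 bases into the annotated gene (Inha-201, chromosome 1, 75507077 to 75510366) and is not printed. Windows were matched for 7 of the 9 genes.

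**Figure D1:**
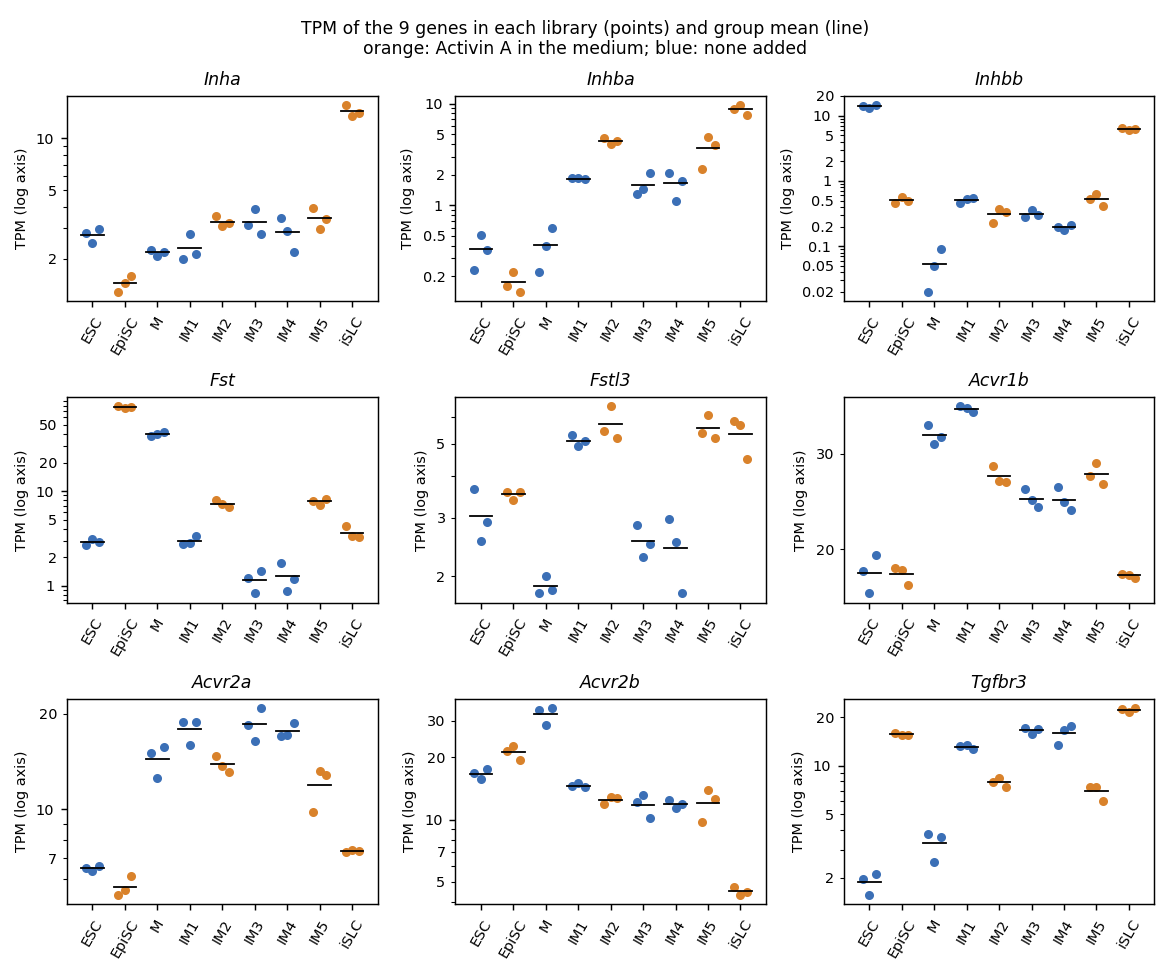
TPM on a log axis for each of the 9 genes, with 1 point per library and a line at the mean of each group of 3 libraries; orange marks media with Activin A and blue media without. Inhbb is highest in ESC and in iSLC, Fst is highest in EpiSC and M, and Inha and Inhba are highest in iSLC.

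Every one of the 9 genes differed between the 9 groups (edgeR quasi-likelihood F test, adjusted p under 0.05), which sets them apart little, since 96.4% of the tested genes did. In the pairwise comparisons a gene is called differentially expressed (DE) at the limits of the study: an adjusted p no higher than 0.01, a change of 2-fold or more, and a mean normalized read count that reached 100 both over the whole series and in 1 or both compared groups. All adjusted p-values below are from edgeR's quasi-likelihood test with Benjamini-Hochberg adjustment over the 20839 genes.

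**Figure D2:**
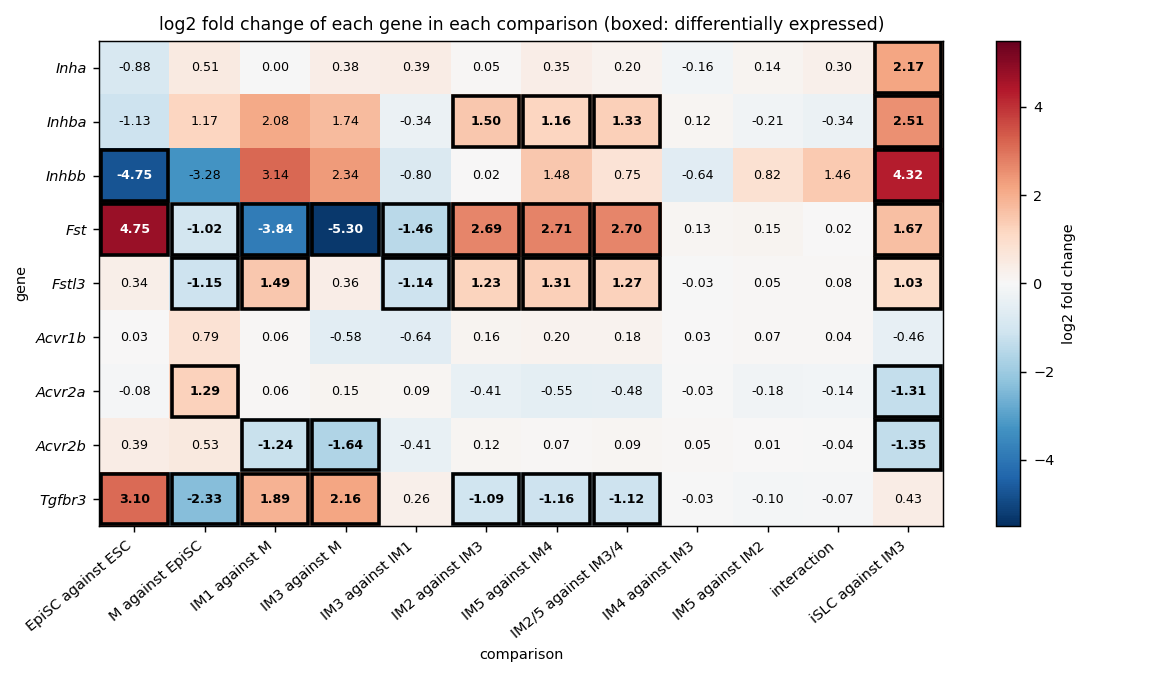
log2 fold change of normalized read count (colour and printed value) for the 9 genes in rows and the 12 comparisons in columns, with a box and bold type where the gene was DE. Fst is boxed in 9 columns and Acvr1b in none, and the 3 columns on CHIR99021 (IM4 against IM3, IM5 against IM2 and the interaction) hold no box.

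Of the subunits, Inhbb covered the widest range of levels. In ESC the 3 libraries held 14.1, 13.0 and 14.6 TPM of Inhbb, which encodes the βB subunit, and in EpiSC 0.46, 0.56 and 0.50. All ESC libraries stood far above all EpiSC libraries, and the gene fell by 4.75 ± 0.13 on the log2 scale (SE; 26.8-fold, adjusted p = 2.6e-20). In M only 0.02, 0.05 and 0.09 TPM were left, which rested on 3 to 13 estimated reads per library. The further change from EpiSC to M, a log2 fold change of -3.28 ± 0.25 (adjusted p = 4.64e-12), was not called because both groups lay under the minimum of 100 counts. From M the level was higher again in IM1 (0.46 to 0.55 TPM) and IM3 (0.28 to 0.36 TPM), with log2 fold changes of 3.14 and 2.34 that missed the same minimum. The order of the group means was ESC, iSLC, IM5, IM1, EpiSC, IM3, IM2, IM4 and M, and the libraries overlapped between IM5, IM1 and EpiSC and between IM3 and IM2.

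Inhba, the gene of the βA subunit, was barely expressed in the first 3 groups. It lay at 0.23 to 0.51 TPM in ESC, 0.14 to 0.22 in EpiSC and 0.22 to 0.60 in M, and at 1.79 to 1.85 TPM in IM1. The change from M to IM1 was 2.08 ± 0.30 on the log2 scale (adjusted p = 6.62e-07) and that from M to IM3 1.74 ± 0.32 (adjusted p = 2.59e-05), and neither was called because the counts stayed under 100. Group means ran in the order iSLC, IM2, IM5, IM1, IM4, IM3, M, ESC and EpiSC. IM2 overlapped IM5, the 3 cultures without Activin A (IM1, IM4, IM3) overlapped in turn, and M overlapped ESC.

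Inha, the gene of the alpha subunit, moved little before the last step. Its level per library was 2.47 to 2.96 TPM in ESC, 1.29 to 1.59 in EpiSC, 2.09 to 2.25 in M and 2.01 to 3.95 over the 15 libraries of IM1 to IM5. EpiSC libraries were all below ESC libraries, with a log2 fold change of -0.88 ± 0.17 (adjusted p = 7.42e-05), which is under the 2-fold limit. Neighbouring groups from IM5 down to M overlapped one another in the order of means, and only iSLC stood clear above and EpiSC below.

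Among the antagonists, Fst carried the largest single change of the 9 genes, the fall from M to IM3 given below. Its 3 ESC libraries held 2.67, 3.13 and 2.93 TPM and its 3 EpiSC libraries 78.4, 74.9 and 77.8. The groups were widely separated, and Fst rose by 4.75 ± 0.13 on the log2 scale (26.8-fold, adjusted p = 1.33e-20) from ESC to EpiSC. With the addition of Activin A this step also removed 2i/LIF, included the passage in knockout serum replacement and added bFGF. In M, from which Activin A was withdrawn, the libraries held 38.3, 40.1 and 41.6 TPM, lower than in EpiSC by -1.02 ± 0.10 on the log2 scale (2.02-fold, adjusted p = 2.04e-09). This fold lies at the limit for a call, and without M replicate 1 the change was -0.97, under it. The step to M also added BMP4 and LY294002 and raised bFGF. In both steps the factors changed together with the stage of the cells and cannot be told apart. From M the gene fell by 3.84 ± 0.12 to IM1 (14.3-fold, adjusted p = 8.72e-20) and it fell by 5.30 ± 0.15 to IM3 (39.5-fold, adjusted p = 4.67e-21), both on the log2 scale.

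Fstl3 stayed within a narrow band of levels, from 1.78 TPM in an M library to 6.47 in an IM2 library. It fell by 1.15 ± 0.14 (log2) from EpiSC to M (adjusted p = 2.88e-08, and -0.98 or -0.99 with a transcript length offset in edgeR or DESeq2, under the fold limit), where the 3 libraries of each group held 3.39 to 3.59 and 1.78 to 2.00 TPM, and rose by 1.49 ± 0.13 from M to IM1 (adjusted p = 1.72e-10). The 12 libraries rich in red blood cell genes held 1.78 to 3.66 TPM of Fstl3 and the other 15 held 3.39 to 6.47, so the 2 sides of the partition hardly overlapped for this gene. Prss57 lies on the opposite strand and covers 47.3% of the exon bases of Fstl3 (chromosome 10, 79777272 to 79782630). Prss57 itself was listed at 0 to 0.11 TPM in all 27 libraries, and whether strand was used in counting is not given in the sources used here, so the counts of Fstl3 carry this uncertainty.

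In EpiSC against ESC 3 of the 9 genes were DE (8.07% of the 20839 tested genes were), in M against EpiSC 4 (14.5%, and 3 of the 9 with the length offset), in IM1 against M 4 (15.7%) and in IM3 against M 3 (14.9%). The first 3 of these comparisons cross the red blood cell partition and IM3 against M does not. The direction of the Fst, Acvr2b and Tgfbr3 changes from M to IM was the same within the partition (IM3 against M) and across it (IM1 against M). Fstl3, called across it, had a log2 fold change of 0.36 within it (95% interval 0.05 to 0.66, adjusted p = 0.0352) and was not called.

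Acvr1b, the type I receptor, was at 16.6 to 36.7 TPM in all 27 libraries and was called in no comparison. Its largest change was from EpiSC (17.2 to 18.5 TPM) to M (31.3 to 34.0 TPM), at 0.79 ± 0.05 on the log2 scale (adjusted p = 2.71e-14). The group means of Acvr1b ran from IM1 and M through IM5, IM2, IM3 and IM4 to ESC, EpiSC and iSLC, and ESC, EpiSC and iSLC overlapped.

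The type II receptor gene Acvr2a rose by 1.29 ± 0.08 on the log2 scale from EpiSC to M (2.44-fold, adjusted p = 4.8e-14), from 5.36, 5.56 and 6.14 TPM to 15.1, 12.5 and 15.8. Its paralog Acvr2b went the other way at the next step. It held 33.9, 28.7 and 34.6 TPM in M and 14.5, 15.0 and 14.3 in IM1, and fell by 1.24 ± 0.08 to IM1 (adjusted p = 5.17e-13) and by 1.64 ± 0.09 to IM3 (adjusted p = 3.42e-15), while Acvr2a changed by 0.06 (95% interval -0.10 to 0.21) from M to IM1. Acvr2b was thus the more abundant type II receptor per length in ESC, EpiSC and M, and Acvr2a in every library of IM1 to IM4 and iSLC, while the IM5 libraries lay on both sides of equality. Group means of Acvr2a ran IM3, IM1, IM4, M, IM2, IM5, iSLC, ESC and EpiSC, and those of Acvr2b M, EpiSC, ESC, IM1, IM2, IM5, IM4, IM3 and iSLC, with IM2, IM5, IM4 and IM3 overlapping in the latter.

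Tgfbr3, the betaglycan gene, was low in ESC and M and high in EpiSC and the later cultures. The ESC libraries held 1.57 to 2.13 TPM, the EpiSC libraries 15.5 to 16.0, the M libraries 2.50 to 3.78, and the IM1 libraries 12.7 to 13.5. None of these groups overlapped the one before it. Tgfbr3 rose by 3.10 ± 0.11 (log2) to EpiSC (adjusted p = 5.63e-18), fell by 2.33 ± 0.11 to M (adjusted p = 1.91e-16), and rose by 1.89 ± 0.11 to IM1 and by 2.16 ± 0.11 to IM3 (adjusted p = 1.28e-14 and 9.74e-16).

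Activin A in the medium was compared with its absence in IM2 against IM3, without CHIR99021, and in IM5 against IM4, with it. The same 4 genes were DE in both: the βA gene Inhba and the antagonist genes Fst and Fstl3 rose, and Tgfbr3 fell. In the background 3.80% and 4.09% of the tested genes were DE in these comparisons, and 3.91% over both together (IM2/5 against IM3/4). The 2 comparisons have separate libraries and share none.

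Fst held 7.98, 7.22 and 6.78 TPM in IM2 against 1.20, 0.83 and 1.42 in IM3, and 7.82, 7.19 and 8.29 in IM5 against 1.72, 0.87 and 1.19 in IM4. Every library with Activin A lay above every library without it. The rise was 2.69 ± 0.16 on the log2 scale in the first pair (adjusted p = 6.22e-13) and 2.71 ± 0.15 in the second (adjusted p = 1.33e-13), about the same size as over both (6.51-fold).

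Inhba held 4.62, 3.96 and 4.32 TPM in IM2 against 1.29, 1.44 and 2.05 in IM3. The IM5 libraries held 2.28, 4.72 and 3.92 TPM and the IM4 libraries 2.08, 1.11 and 1.72. The groups did not overlap, although IM5 replicate 1 came close to IM4 replicate 1. Inhba rose by 1.50 ± 0.25 (log2, adjusted p = 1.85e-05) and 1.16 ± 0.24 (adjusted p = 0.000235), and without IM4 replicate 2 or IM5 replicate 2 the second value was 0.95 or 0.97, under the 2-fold limit.

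Fstl3 ranged from 5.22 to 6.47 TPM in IM2 and IM5 and from 1.79 to 2.97 TPM in IM3 and IM4, without overlap, and rose by 1.23 ± 0.13 and 1.31 ± 0.13 on the log2 scale (adjusted p = 3.36e-08 and 6.71e-09). Tgfbr3 ranged from 6.06 to 8.39 TPM with Activin A and from 13.4 to 17.6 without, and fell by 1.09 ± 0.10 and 1.16 ± 0.10 (adjusted p = 2.33e-09 and 6.25e-10). Over both pairs Acvr2a had a log2 fold change of -0.48 ± 0.05 (adjusted p = 2.06e-08), Inhbb of 0.75 ± 0.14 (adjusted p = 6.31e-05) and Acvr1b of 0.18 ± 0.03 (adjusted p = 3.3e-05), all under 2-fold. For Inhbb the pairs differed, with 0.02 in IM2 against IM3 and 1.48 in IM5 against IM4 (2.79-fold, adjusted p = 5.72e-07). The latter was not called because both groups lay under 100 counts. Inha and Acvr2b did not pass the test, with log2 fold changes of 0.20 (95% interval -0.03 to 0.43) and 0.09 (95% interval -0.03 to 0.22). With an offset for GC content the values were -0.13 and -0.43, and that of Acvr2b then passed the p limit (edgeR, adjusted p = 2.23e-05).

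Cell type markers moved in the same comparison. In IM2/5 against IM3/4 the early mesoderm gene T was at 3.28, the pluripotency gene Pou5f1 at 2.07 and Osr1 at 2.13 on the log2 scale, while Wt1 was at -2.39 and the genital ridge gene Tcf21 at -1.82, all DE. By list, 2 of 5 ESC, 2 of 4 early mesoderm and 2 of 4 intermediate mesoderm markers rose, 1 intermediate mesoderm and 1 of 5 genital ridge markers fell, and of 4 endothelial markers Pecam1 rose (1.09) and Tek fell. The summed early mesoderm level was 6.68 and 7.21 TPM in IM2 and IM5 and 1.58 and 1.42 TPM in IM3 and IM4, and the part of these cells in the changes of the 9 genes was not tested. IM2 and IM5 stand on the other side of the red blood cell partition from IM3 and IM4. IM1, which had no Activin A, stands on the same side as IM2 and IM5 but lacked retinoic acid. In IM2/5 against IM1, chosen after the data were seen, 2 of the 9 genes were DE (3.15% of all tested genes): Inhba rose by 1.05 ± 0.20 (log2, adjusted p = 0.000159) and Fst rose 2.47-fold (adjusted p = 5.26e-10). The same 2 genes were DE in IM2 alone against IM1 (3.51% of all tested genes). Tgfbr3 had a log2 fold change of -0.87 ± 0.08 (adjusted p = 3.34e-09), under the fold limit, and Fstl3 one of 0.12 (95% interval -0.10 to 0.34, adjusted p = 0.414), since its IM1 libraries already held 4.91 to 5.33 TPM.

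**Figure D3:**
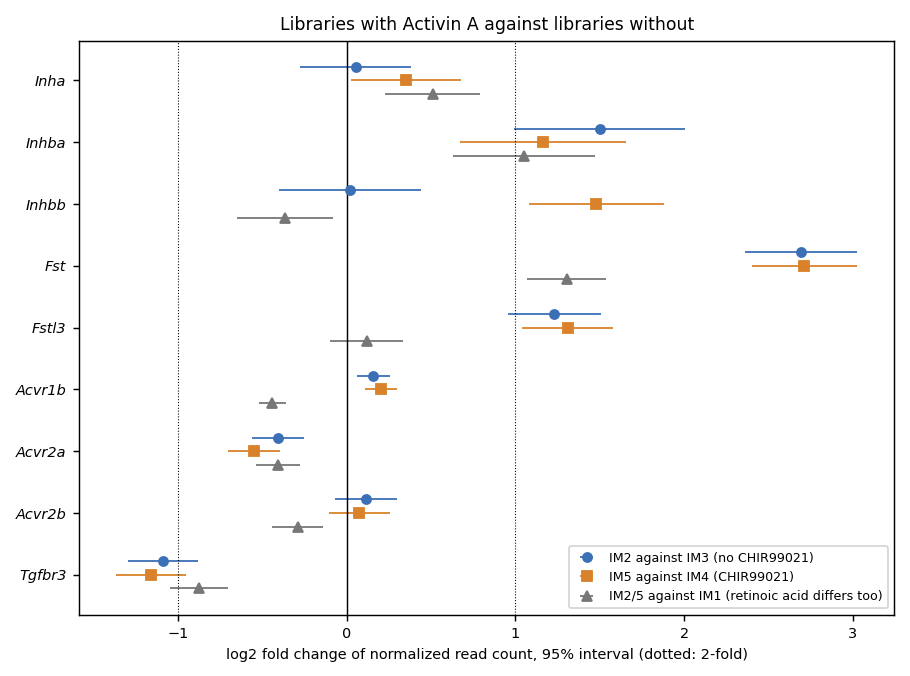
log2 fold change of normalized read count with its 95% interval for the 9 genes in IM2 against IM3 (circles), IM5 against IM4 (squares) and IM2/5 against IM1 (triangles); dotted lines mark 2-fold. Fst, Inhba and Tgfbr3 lie on the same side of 0 in all 3 comparisons, the Fstl3 triangle lies near 0, and Acvr1b, Acvr2b and Inhbb lie on opposite sides of 0 for IM5 against IM4 and for IM2/5 against IM1.

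In the comparisons on CHIR99021 none of the 9 genes was called, and Inhbb had the largest log2 fold change in each. In IM4 against IM3 none was DE in edgeR (0.101% of all tested genes were) or in DESeq2, and 1 of the 9 had an unadjusted p under 0.05: Inhbb, with a log2 fold change of -0.64 ± 0.23 (95% interval -1.10 to -0.17, adjusted p = 0.182). In IM5 against IM2 none was DE in either tool (0.235%) and 2 had an unadjusted p under 0.05, Inhbb and Acvr2a. Inhbb, at 0.42 to 0.63 TPM in IM5 and 0.23 to 0.37 in IM2, passed the p limit with a log2 fold change of 0.82 ± 0.17 (adjusted p = 0.00277). The test of whether the Activin A effect differed with CHIR99021 called none of the 9 in either tool (0.0336%), and 1 had an unadjusted p under 0.05, again Inhbb. Its log2 interaction was 1.46 ± 0.29 (adjusted p = 0.012), above the limit of 0.01, and is taken up in a closing section. The share of all tested genes with an unadjusted p under 0.05 was not counted, so these counts have no background.

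Retinoic acid was the added factor in IM3 against IM1, which also crosses the partition. There 2 of the 9 genes were DE (6.34% of all tested genes): Fst fell by 1.46 ± 0.17 on the log2 scale (adjusted p = 8.23e-08), from 2.79, 2.82 and 3.35 TPM to the IM3 values given above, and Fstl3 fell by 1.14 ± 0.13 (adjusted p = 6.12e-08). Both antagonists were lower in every IM3 library than in any IM1 library, and with an offset for GC content the Fstl3 value was -0.92, under the fold limit. Acvr1b had a log2 fold change of -0.64 ± 0.05 (adjusted p = 8.27e-12), Inhbb of -0.80 ± 0.18 (adjusted p = 0.000652) and Acvr2b of -0.41 ± 0.09 (adjusted p = 0.000333), all under 2-fold, and the last turned to 0.09 with the GC content offset.

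In iSLC against IM3, the culture they came from, 7 of the 9 genes were DE, in a comparison in which 19.2% of all tested genes were. All 3 subunit genes and both antagonists rose (10.3% of all tested genes were DE and higher), and both type II receptors fell (8.92% were DE and lower). Inhbb held 6.36, 5.95 and 6.27 TPM in iSLC against 0.28, 0.36 and 0.30 in IM3, a rise of 4.32 ± 0.15 on the log2 scale (19.9-fold, adjusted p = 4.41e-19). Inha held 15.5, 13.5 and 14.0 TPM against 3.13, 3.87 and 2.78, a rise of 2.17 ± 0.15 (4.50-fold, adjusted p = 8.98e-13), and Inhba 8.93, 9.70 and 7.75 TPM against 1.29, 1.44 and 2.05, a rise of 2.51 ± 0.24 (5.69-fold, adjusted p = 5.15e-10). For each subunit the lowest iSLC library was well above the highest IM3 library. Inha at 14.3 ± 1.07 TPM (SD, n = 3) was the most abundant subunit transcript per length in iSLC, ahead of Inhba at 8.79 ± 0.982 and Inhbb at 6.19 ± 0.215.

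Fst rose in iSLC by 1.67 ± 0.17 on the log2 scale (adjusted p = 1.99e-09), to 3.26 to 4.27 TPM, and Fstl3 by 1.03 ± 0.13 (adjusted p = 1.26e-07), to 4.50 to 5.87 TPM. The Fstl3 rise of 2.04-fold lay at the limit and passed under it in 4 of the 6 fits that left out 1 library (without IM3 replicate 2 or 3 or iSLC replicate 1 or 2, log2 0.97 to 0.99) and with a GC content offset (0.76). Acvr2a fell by 1.31 ± 0.08 (adjusted p = 2.35e-14) to 7.30 to 7.45 TPM, and Acvr2b fell by 1.35 ± 0.10 (adjusted p = 1.17e-12) to 4.33 to 4.75 TPM, below every other library of the series. Acvr1b and Tgfbr3 passed the p limit with log2 fold changes of -0.46 ± 0.05 and 0.43 ± 0.10, under 2-fold, and Tgfbr3 at 21.6 to 22.9 TPM was higher than in any other group.

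The iSLC medium held Activin A, EGF, FSH, FGF9, a prostaglandin and testosterone, and that of IM3 held none of these. The 2 groups stand on opposite sides of the partition. All 4 endothelial markers listed (Pecam1, Cdh5, Kdr and Tek) were DE and lower in iSLC, with a summed level of 3.53 TPM against 67.2 in IM3. Of 8 Sertoli markers the introduced Dmrt1 alone was DE. Of 5 Leydig cell markers 2 were DE and higher, led by Cyp11a1 with a log2 fold change of 6.46. Of 6 granulosa markers 2 were DE and higher, led by Fst, itself 1 of the 9 genes, at 1.67. Over all tested genes 10.3% were DE and higher. The part of these cells in the changes of the 9 genes was not tested. Against IM2, which had Activin A and stands on the side of iSLC but was not their parent culture, Inhbb was higher in iSLC by 4.30 ± 0.15 and Inha by 2.12 ± 0.15 on the log2 scale, close to the values against IM3, and Inhba by 1.01 ± 0.21. Fst was lower than in IM2, by -1.02 ± 0.13 (adjusted p = 6.57e-08), and Fstl3 did not pass the test, at -0.20 (95% interval -0.45 to 0.05). Acvr2a was lower by -0.90 ± 0.08, under the fold limit, and Tgfbr3 higher by 1.51 ± 0.10. The share of all tested genes that were DE there was 18.5%, and this comparison was also chosen after the data were seen.

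The balance within the system was read as ratios of TPM in each library. The antagonist transcripts Fst plus Fstl3 were at 0.418 times the beta subunit transcripts Inhba plus Inhbb in ESC (geometric mean of 3 libraries), at 119 times in EpiSC, 99.5 times in M, 1.96 to 3.46 times in IM1 to IM5 and 0.597 times in iSLC. The M libraries ran from 63.0 to 167 times, since the beta subunits there rested on few reads. These were 10 to 30 estimated reads of Inhba and 3 to 13 of Inhbb per library. On the log2 scale this ratio was -1.35 to -1.18 in ESC and -0.85 to -0.59 in iSLC, and above 0 in all 21 libraries of the other groups. With Activin A (IM2 and IM5) it was 1.61 ± 0.33 (SD, n = 6) against 0.99 ± 0.33 without (IM3 and IM4, n = 6), a difference of 0.62 (two-sided exact permutation test, p = 0.0108, adjusted over 4 ratios p = 0.0144), with libraries overlapping between 1.31 and 1.40. IM1, also without Activin A, was at 1.79 ± 0.07 (n = 3), above the means of IM2 (1.50) and IM5 (1.73), so the difference was not seen against IM1, which lacked retinoic acid and stands on the side of IM2 and IM5.

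**Figure D4:**
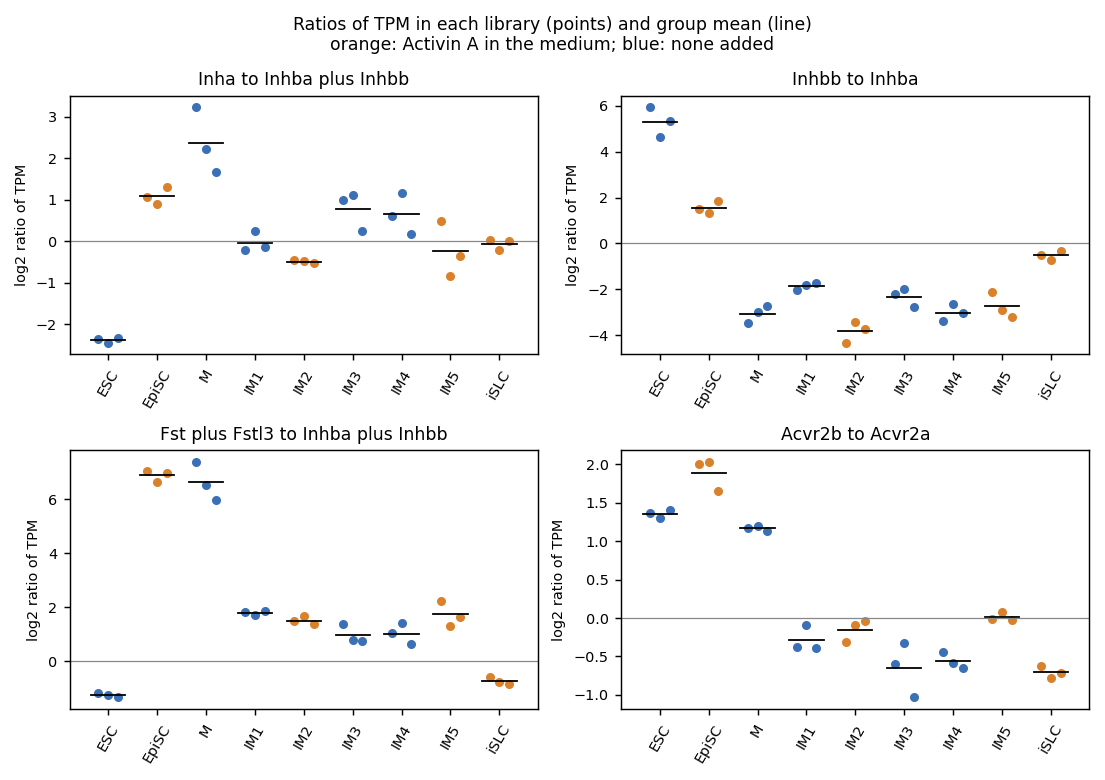
log2 ratio of TPM in each library (points) with the mean of each group of 3 (line) for 4 ratios; orange marks media with Activin A and blue media without. The ratio of antagonist to beta subunit transcripts is below 0 in ESC and iSLC only, and that of Acvr2b to Acvr2a is above 1 in ESC, EpiSC and M and between -1.04 and 0.07 in the rest.

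The beta subunit transcripts changed from mostly Inhbb to mostly Inhba. The ratio of Inhbb to Inhba was 39.8 in ESC and 2.97 in EpiSC, and lay between 0.0708 (IM2) and 0.278 (IM1) in M and the IM cultures, and it was 0.707 in iSLC. In ESC, EpiSC and M the Inhba side of this ratio rested on 7 to 30 estimated reads per library. The Inhbb side in M rested on 3 to 13. Between IM2/5 and IM3/4 it differed by -0.61 on the log2 scale, which did not pass (exact permutation, adjusted p = 0.128). The pairs behind this value went opposite ways. The mean log2 ratio was -3.82 in IM2 against -2.33 in IM3, and -2.74 in IM5 against -3.01 in IM4. Inha to Inhba plus Inhbb was at -0.36 ± 0.45 (log2, n = 6) with Activin A and 0.71 ± 0.44 without, a difference of -1.08 (exact permutation, adjusted p = 0.013), and was 0.955 on the linear scale in iSLC, where alpha and beta subunit transcripts were about equal. Acvr2b to Acvr2a was -0.07 ± 0.13 with Activin A and -0.61 ± 0.24 without (log2, difference 0.54, exact permutation, adjusted p = 0.00866), and every IM2 and IM5 library lay above every IM3 and IM4 library, the nearest by -0.32 against -0.33. The IM1 libraries overlapped those of IM2 in the ratio of Acvr2b to Acvr2a (-0.39 to -0.09) and lay within the range of IM5 in that of Inha to the beta subunits (-0.20 to 0.24).

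Other genes of the pathway were counted from 5 lists. Of 15 genes known to respond to SMAD2 and SMAD3, 6 were DE from ESC to EpiSC and all 6 rose, where 3.75% of all tested genes did (median log2 fold change of the 15 0.89, against -0.0026 over all tested genes), led by Cer1 at 8.44, and 10 fell and 1 rose from EpiSC to M, against 7.72% and 6.79% of all tested genes (median -1.52, against -0.06), where Lefty1 fell by 6.48. In IM2/5 against IM3/4, 8 of the 15 were DE and all 8 rose, against 2.52% of all tested genes that rose and 1.38% that fell (median 1.07, against 0), with Eomes, a T-box factor of early mesoderm and endoderm, at 5.08. Lefty1, Lefty2 and Cer1 stand both in this list and in that of extracellular antagonists, of which 3 of the 10 tested rose, led by Lefty1 at 5.04. Nodal stands also in the list of ligands, Tdgf1 in that of receptors and coreceptors, and Skil and Smad7 in that of Smads. Mixl1 is also an early mesoderm marker above, so the counts by list are not independent. In iSLC against IM3, 3 of the 15 rose and 2 fell, against 10.3% and 8.92% of all tested genes (median -0.40), with Gsc at 6.79.

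Of the 11 other ligand genes tested, Nodal alone was DE in IM2/5 against IM3/4, with a rise of 3.23 on the log2 scale, and Tgfb3 alone in iSLC against IM3, with a rise of 2.17. The shares of all tested genes that were DE were 2.52% higher and 1.38% lower with Activin A and 10.3% higher and 8.92% lower in iSLC. Among 13 other receptors and coreceptors, 2 rose and 1 fell with Activin A (Acvrl1 at 1.01 and Amhr2, the anti-Müllerian hormone receptor, at -1.88), and 3 rose and 2 fell in iSLC (Tgfbr2 at 1.68 and Igsf1 at -1.75). Among 15 Smads, partners and convertases, 2 rose and 1 fell with Activin A, with Foxh1, the nuclear partner of SMAD2, at 1.77 and the convertase gene Pcsk6 at -1.35. In IM4 against IM3 and in IM5 against IM2 none of the 57 tested genes of the 5 lists was DE in edgeR, and 10 and 21 of them had an unadjusted p under 0.05. The share of all tested genes at that unadjusted limit was not counted, so whether 10 or 21 is many cannot be said.

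Inha, Inhbb, Fst and Acvr1b had 1 transcript each in the files and the same length in all libraries. The abundance-weighted length of Inhba was 1529 to 1593 bases, close to the 1529 bases of the shorter of its transcripts (Inhba-202, which starts at 16014475 on chromosome 13) and far from the 6390 bases of Inhba-201, whose start the printed promoter precedes. The TPM of Inhba therefore rests on the short form. The weighted length of Fstl3 was 1688 to 1955 bases, shortest in M and longest, at the full 1955 bases of its coding transcript, in EpiSC and IM4 libraries. That of Acvr2a was 4944 to 5686 bases, the upper end again its coding transcript and the lower end in IM1, and that of Tgfbr3 was 5826 to 6087. Shorter forms without a coding sequence are listed for Fstl3 (1549 and 637 bases), Acvr2a (1252 bases) and Tgfbr3 (2849 and 1368 bases), so part of their TPM can lie there.

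The genes whose log2 CPM values were most like those of a member over the 27 libraries were named as a description, among 13451 genes with a mean of at least 100 counts. The libraries share stages and depth, so high correlations are common. Fst ran closest to Fgf8 (r = 0.945), the fibroblast growth factor gene of the primitive streak, and Fstl3 closest to Pmepa1 (r = 0.941), a gene of the SMAD2 and SMAD3 list above. The closest genes were Nfix for Inha (r = 0.970), Apbb2 for Inhba (r = 0.976), Nupr1 for Inhbb (r = 0.947), Spin2c for Acvr1b (r = 0.964), Nckap1 for Acvr2a (r = 0.972), Smim10l2a for Acvr2b (r = 0.980) and Zfp467 for Tgfbr3 (r = 0.938).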

How the data were processed

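Total RNA of 27 libraries (9 groups of 3) was sequenced with paired ends of 75 bases. Per the labels and the study's methods, the authors trimmed reads with cutadapt 1.9.1, aligned them with STAR 2.5.2a to GRCm38 with Ensembl release 86, and estimated abundance per gene with RSEM 1.3.0. The deposited values used were the expected count (an estimated read count that need not be whole), TPM, and the length and effective length of each gene. FPKM was not used. Depth was 35923040 to 84876603 expected counts per library.

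The 9 genes and all lists were chosen with earlier results of these data known. Symbols and positions were taken from GENCODE M21 (GRCm38), which named 48435 of 48795 genes. Expected counts were rounded to whole numbers, filtered with filterByExpr (20839 genes kept), scaled by TMM and tested with edgeR 4.0.16 in 1 model of all libraries with a term per group. Normalized read counts are counts scaled to the mean effective library size. DE genes met the study's thresholds (adjusted p at most 0.01, at least 2-fold, at least 100 counts), without its length offset, which was an alternative. The calculation was tested on simulated data. The named genes were the 9 members, the 3 genes most alike to each (the closest of them is printed), and the largest rise and fall of each list, of which 1 is not reported here. Ratios were log2 ratios of deposited TPM, compared by exact permutation in SciPy. Alternatives were DESeq2 1.42.0 (size factors, Wald and likelihood ratio tests), length and GC content offsets, no filter, only the groups compared, a replicate block, other thresholds, and each library left out. GC content was known for 99.72% of tested genes. Replicate numbers did not pair samples and are described with the alternatives.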

Additional observations from a re-analysis of the deposited data

Results flagged for a closer look

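The estimated Activin A effect on Inhbb, the βB subunit gene, differed between the cultures without and with CHIR99021, by a log2 interaction of 1.46 ± 0.29 (SE, 95% interval 0.87 to 2.05), which was not called. The adjusted p of 0.012 (edgeR) is under 0.05 and above the limit of 0.01 used for calls. Inhbb held 0.23, 0.37 and 0.33 TPM in IM2 and 0.28, 0.36 and 0.30 in IM3, and there the log2 fold change was 0.02 (95% interval -0.40 to 0.44). In IM5 it held 0.53, 0.63 and 0.42 TPM and in IM4 0.20, 0.18 and 0.21, and there it was 1.48 (95% interval 1.08 to 1.88). All IM5 libraries lay above all IM4 libraries, and IM2 and IM3 overlapped. These levels rest on 22 to 98 estimated reads per library. The red blood cell partition separates IM2 from IM3 as it does IM5 from IM4.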

How the results depend on the processing

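The number of DE genes among the 9 stayed within 1.5 times of its value under DESeq2 (size factors, or the Wald test with the length offset), the length offset, no filter on low counts, an adjusted p of at most 0.05, only the groups compared and each left-out library. Without the 2-fold limit it was 5 in place of 3 for EpiSC against ESC and 4 in place of 2 for IM3 against IM1, and without the count limit 5 in place of 3 for IM3 against M, since fewer limits admit more genes. With a GC content offset it was 1 in place of 2 for IM3 against IM1, and the cause was not tested. There Fstl3 left the calls (-0.92) and Acvr2b turned from -0.41 to 0.091. The same offset turned Inhbb in IM2 against IM3 from 0.02 to -0.32, and in IM2/5 against IM3/4 it turned Inha from 0.20 to -0.13 and Acvr2b from 0.09 to -0.43, all as log2 fold changes, and it took Fstl3 in iSLC against IM3 to 0.76, under the limit. It brought Inha in EpiSC against ESC (-1.04) and Acvr2b in M against EpiSC (1.03) over it. A GC trend was taken per library, as the median log2 deviation of genes in the upper quartile of GC content minus that in the lower quartile. This trend was -0.41 to 0.06 in the 12 libraries rich in red blood cell genes and -0.09 to 0.42 in the other 15. Fstl3 in M against EpiSC was at -0.98 with the length offset and -0.99 in DESeq2 with it, and Fst there was at -0.97 with only the groups compared. The scalings moved the median of all genes by less than 0.1 (log2).

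Replicate numbers did not pair the libraries. Deviations of equally numbered libraries from their group means had a mean correlation of 0.0024, and in 0 of 36 pairs of groups were all 3 over 0.1. A replicate block left every count of DE genes and all 63 gene values on the same side of the limits. With the block and the GC offset together the count for IM3 against IM1 was 1, and the values above were 0.092 (Acvr2b) there, -0.33 (Inhbb) in IM2 against IM3, and -0.13 (Inha) and -0.43 (Acvr2b) in IM2/5 against IM3/4.

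The comparisons with IM1 in place of IM3 or of IM3 and IM4, and with IM2 in place of IM3, were chosen after seeing the data. With IM1 the DE genes numbered 2 in place of 4 both for IM2 and for IM2/5, and the cause was not tested. Inhbb then turned to -0.78 and -0.37, Acvr1b to -0.48 and -0.44, and, in IM2/5, Acvr2b to -0.29. With IM2 as the reference of iSLC, Fst turned to -1.02 and Fstl3 to -0.20.

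Leaving out 1 library gave -0.13 to 0.20 for Inhbb in IM2 against IM3. The difference of the Inhbb to Inhba ratio ranged from -0.85, without IM5 replicate 1 (adjusted p = 0.0303), to -0.40, and it was -0.72 (adjusted p = 0.0476) with 0.1 added to TPM. It passed 0.05 in those 2 cases, and the cause was not tested. For the other 3 ratios none of the alternatives applied to ratios changed the side of 0.05. These were normalized read counts in place of TPM, 0.1 added to TPM, and each library left out. The GC content offset was not applied to the ratios. In IM2/5 against IM3/4 it took Acvr2b from 0.09 to -0.43, so the ratio of Acvr2b to Acvr2a was not tested against it.

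With 3 libraries a group, levels under 1 TPM (Inhbb and Inhba in several groups) rest on few reads, and the limits of 2-fold and 100 counts, more than p, decide which of the 9 genes are called.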
